A study of Mus musculus with 4 samples.

Results

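The class II olfactory receptor clusters of the mouse genome were examined in fetal liver with an array that measures immunoprecipitated methylated DNA. Members were the array's non-control probes that start in 7 windows of build mm9: chromosome 2 from 85.2 to 90.0 Mb and from 111.1 to 112.2 Mb, chromosome 9 from 37.5 to 39.8 Mb, chromosome 10 from 128.5 to 129.5 Mb, chromosome 16 from 58.6 to 59.5 Mb, chromosome 17 from 37.4 to 38.3 Mb and chromosome 19 from 12.0 to 13.9 Mb. These 12.9 Mb held 8811 of 415749 probes. Probes starting at most 500 bp apart were joined into regions of about 2000 bp at most with 3 or more probes, which gave 1176 receptor regions of 56642 in all and left 515 probes in no region. The regions numbered 506 and 81 in the longer and the shorter chromosome 2 window, 197 on chromosome 9, 94 on chromosome 10, 80 on chromosome 16, 74 on chromosome 17 and 144 on chromosome 19. The scanner output lists positions without gene names, and no mm9 annotation was used here, so single regions carry no gene name and the receptor content of the windows was not checked on that build.

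DNA came from livers of C57BL/6J fetuses taken by caesarean section on gestation day 18. In the food restricted group the dams received 50% of the chow eaten by the control dams from gestation day 10 to 17, and control dams ate freely. Each group was 1 pool described as N = 6, with no statement of whether the 6 were fetuses or litters. Liver was taken whole, so the values average over the hepatocytes, blood-forming cells and other cells that the fetal organ holds. Each of the 2 pools was hybridised to 2 arrays, with immunoprecipitated DNA in Cy5 and total genomic DNA of the same pool as reference in Cy3 on slide 1, and with the dyes exchanged on slide 2. Both arrays of a pool repeat the same DNA, so no test between pools was possible and every value is given per array or per slide.

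Olfactory receptors are G-protein-coupled receptors that detect odorants, and each olfactory sensory neuron uses 1 of the many genes, from 1 allele. Class II receptors are the large tetrapod-type group, arranged as tandem arrays on many chromosomes, while the fish-like class I genes form a cluster of their own on chromosome 7. The arrays are rich in A and T, poor in CpG, and in non-olfactory tissue they are known as late-replicating, silent chromatin. Immunoprecipitation of methylated DNA recovers a fragment according to both the methylation and the number of its CpGs, so a low recovery can come from few CpGs as well as from unmethylated ones.

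How few CpGs such a gene start carries can be read from RefSeq promoter windows of build GRCm38.p6, which span 250 bases before to 50 bases after the annotated start. These coordinates are not comparable with the mm9 positions of the array. On the 6 chromosomes of the windows, RefSeq listed 836 olfactory receptor genes and pseudogenes by symbol, 742 of them class II by the MOR family number in their synonyms, and 524 of those had a promoter window. The longest runs of neighbouring receptor genes, with no other protein-coding gene between them, held 155 genes on chromosome 2, 51 on chromosome 9, 60 on chromosome 10, 32 on chromosome 16, 31 on chromosome 17 and 62 on chromosome 19. The receptor windows had a median of 1 CpG (the letters CG, which read the same on both strands) in 300 bases, against 8 in 26081 windows of genes that are not olfactory receptors. No CpG at all was found in 195 (37.2%) of the receptor windows and in 4.82% of the others, and 4 or more in 10 (1.91%) against 69.9%. The median share of G and C was 33.7% against 53.0%. In 74.0% of the receptor windows the annotated start is directly an ATG, against 4.35% of the others. For many receptor genes the window thus lies before the coding start and not at a mapped transcription start, so the sets are not placed alike.

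The first sequence below is the first by position with the median of 1 CpG in the longest run on chromosome 2, and the second is the same for chromosome 16. The third, on chromosome 2, had the most CpGs of all 524, with 7. They lie at chr2:87545493-87545792 on the minus strand (31.0% G and C), chr16:58761191-58761490 on the minus strand (35.3%) and chr2:88958218-88958517 on the plus strand (40.0%), and each CpG is in capitals.
Olfr1128: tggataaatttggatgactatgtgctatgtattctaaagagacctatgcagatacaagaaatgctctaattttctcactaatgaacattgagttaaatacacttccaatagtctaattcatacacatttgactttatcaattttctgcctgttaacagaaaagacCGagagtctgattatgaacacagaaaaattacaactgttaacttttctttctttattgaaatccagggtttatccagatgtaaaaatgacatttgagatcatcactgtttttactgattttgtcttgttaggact
Olfr172: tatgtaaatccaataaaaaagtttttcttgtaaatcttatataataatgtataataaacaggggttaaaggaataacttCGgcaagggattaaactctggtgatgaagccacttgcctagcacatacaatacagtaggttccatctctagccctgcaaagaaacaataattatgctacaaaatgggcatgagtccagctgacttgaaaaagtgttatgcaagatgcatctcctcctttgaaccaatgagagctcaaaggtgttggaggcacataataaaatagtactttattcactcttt
Olfr1212: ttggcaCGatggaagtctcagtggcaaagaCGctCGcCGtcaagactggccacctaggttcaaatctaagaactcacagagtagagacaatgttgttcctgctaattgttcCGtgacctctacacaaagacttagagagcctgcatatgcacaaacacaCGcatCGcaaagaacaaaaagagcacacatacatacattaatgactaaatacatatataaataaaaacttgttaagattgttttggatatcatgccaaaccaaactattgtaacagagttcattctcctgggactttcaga

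The assignment of 2 arrays to their pools carries a doubt that touches each difference between pools. In the deposited value table, the column of the food restricted array on slide 1 equals the scanner values of the control array on slide 2 at 100.0% of probes (within 0.001), and the reverse holds for the other column. The r between each of these columns and its own scanner output was -0.91. The labels conflict on the dyes too: the description of both food restricted arrays says dye-swap, although their titles give 1 array in each dye orientation. The scanner output and titles were followed here, and values with the pools taken from the table's column names are given where they change a result. Under that assignment both control arrays lie on slide 1 and both food restricted arrays on slide 2, so pool, slide and dye orientation coincide. Within a slide, control and food restricted DNA always took the same one of the array positions, so position and pool cannot be told apart.

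Enrichment was measured as M, the log2 ratio of immunoprecipitated over reference signal, centred on the median of its array, and a region's M is the median of its probes. Receptor regions had low M on every array. On slide 1 the median M was -1.06 for control and -1.0 for food restricted DNA, and on slide 2 it was -0.88 and -0.84. All other regions had medians of -0.048, -0.058, -0.063 and -0.052 in the same order. The receptor median was thus below that of the other regions on each of the 4 arrays, by far more than the medians of 2 arrays of a pool differed. The 635 regions in the 1 Mb on either side of each window lay between, with medians of -0.51 and -0.43 on slide 1 and -0.52 and -0.41 on slide 2.

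**Figure D1:**
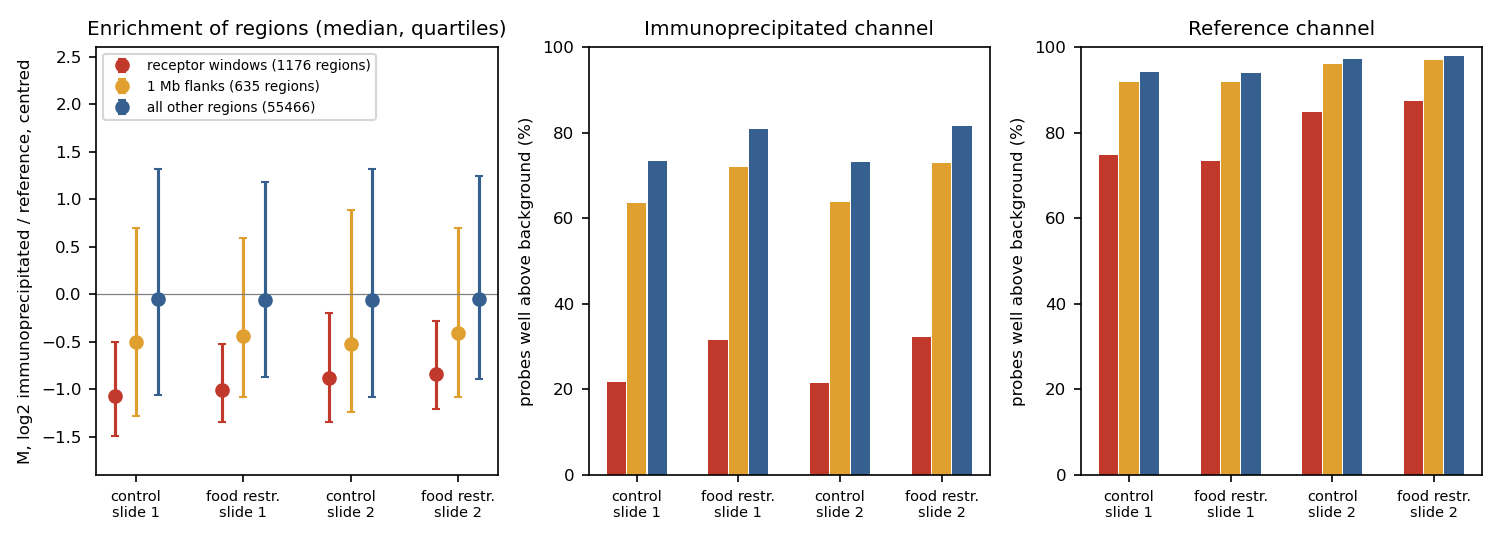
Left, median and quartiles of M (log2, centred) for the receptor regions, the 1 Mb flanks and all other regions (which include the flanks) on each of the 4 arrays. Middle and right, the percentage of probes well above background in the immunoprecipitated and in the reference channel, where receptor probes were between 21.5% and 32.1% in the first and between 73.5% and 87.4% in the second.

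Averaged over the 4 arrays, the receptor regions had a median M of -0.98 with quartiles of -1.31 and -0.41. High values were rare: 60 regions (5.10%) had a mean M above 1, where 28.6% of all regions did, and 15 (1.28%) had one above 2, against 14.5% of all regions. A mean M below -1 was found in 569 (48.4%), against 24.9% of all regions. When all regions were ordered by mean M and divided into 10 equal classes, 976 receptor regions (83.0%) fell into the 5 lowest classes and 7 into the highest.

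Both channels were low in the windows, the immunoprecipitated channel more so. With each channel centred on its array median, the median immunoprecipitated signal of the receptor regions was -2.82 (control) and -2.63 (food restricted) on slide 1 and -2.54 and -2.47 on slide 2, on the log2 scale. The reference signal was -1.31 and -1.16 on slide 1 and -1.39 and -1.20 on slide 2. In scanner units after background subtraction, the median receptor probe had 5.77, 10.47, 5.22 and 8.13 in the immunoprecipitated channel (control and food restricted on slide 1, then on slide 2), where the other probes had 40.6, 65.5, 30.6 and 45.3. In the reference channel the receptor probes had 46.9, 51.6, 61.7 and 71.2, against 117, 117, 165 and 167. The total DNA of receptor regions thus gave a dim but mostly measurable signal, and the precipitated DNA in most regions did not.

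Only a minority of receptor probes was well above background in the immunoprecipitated channel. The share was 21.8% and 21.5% on the control arrays and 31.6% and 32.1% on the food restricted arrays, against 73.3%, 73.1%, 81.0% and 81.6% of the other probes. With the pools as titled, the food restricted arrays had the higher share on both slides, inside and outside the windows. With pools taken from the value table's column names, the receptor shares were 21.8% and 31.6% (control) and 21.5% and 32.1% (food restricted). Those of the other probes were then 73.3% and 81.0% against 73.1% and 81.6%, so neither pool was the higher throughout. In the reference channel, 74.8% and 84.9% of receptor probes passed on the control arrays and 73.5% and 87.4% on the food restricted arrays. No receptor probe was saturated in either channel. A region is called dim in a pool below where under 1 in 2 of its probes was well above background on both of the pool's arrays. By that measure 812 receptor regions (69.0%) were dim in both pools, where 9.99% of all regions were, 152 in the control pool alone, 3 in the food restricted pool alone and 209 (17.8%) in neither. These counts take the pools as titled. For a dim region M rests on signal near background, so a low M there is not a measured depletion.

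The size of the deficit in M therefore depends on how dim signals are treated, and its sign does too. The median M of the receptor regions minus that of the other regions was -0.92 for control and -0.87 for food restricted DNA. With loess within arrays these differences were -0.15 and -0.11. A normexp background correction was run with an offset of 50 added to both channels, which pulls ratios of dim spots towards 0. That offset is larger than the median immunoprecipitated signal of receptor probes on each array. With it the differences were 0.085 and 0.074, so that the receptor regions lay slightly above. Choosing probes or regions by their immunoprecipitated signal raises M by construction, so values after such a choice only describe what is left. The 209 regions dim in neither pool had a median M of 0.067, against 0.30 in the other regions dim in neither. Without probes dim in that channel, 197 receptor regions remained, and the differences were -0.080 and -0.10.

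Since signals were low in both channels, receptor regions were set beside other regions of like reference signal (mean over the 4 arrays, centred log2), in 6 classes chosen after the data were seen. Where the reference was below -2, the 227 receptor regions had a median M of -0.43, against -0.28 in 853 other regions. From -1.5 to -1, the class with most receptor regions (322), the medians were -1.16 and -0.49. From -0.5 to 0, where 106 receptor regions lay, they were -0.97 and 0.22, the widest gap. In the 40 receptor regions above 0 they were -0.82 and -0.060. From the lowest class to the highest, the receptor minus the other median was -0.15, -0.40, -0.67, -0.94, -1.18 and -0.76.

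The sign within these classes held under the other settings tried. With normexp the 6 differences were -0.013, -0.040, -0.096, -0.18, -0.35 and -0.15, and with loess -0.13, -0.34, -0.48, -0.62, -0.63 and -0.16. It held as well with quantile normalisation, with the mean over probes and without dim reference probes. The overall difference under normexp thus has the opposite sign to each of its 6 class differences, while the share of regions in each class differs: 19.3% of receptor regions had a reference signal below -2, against 1.54% of the others.

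**Figure D2:**
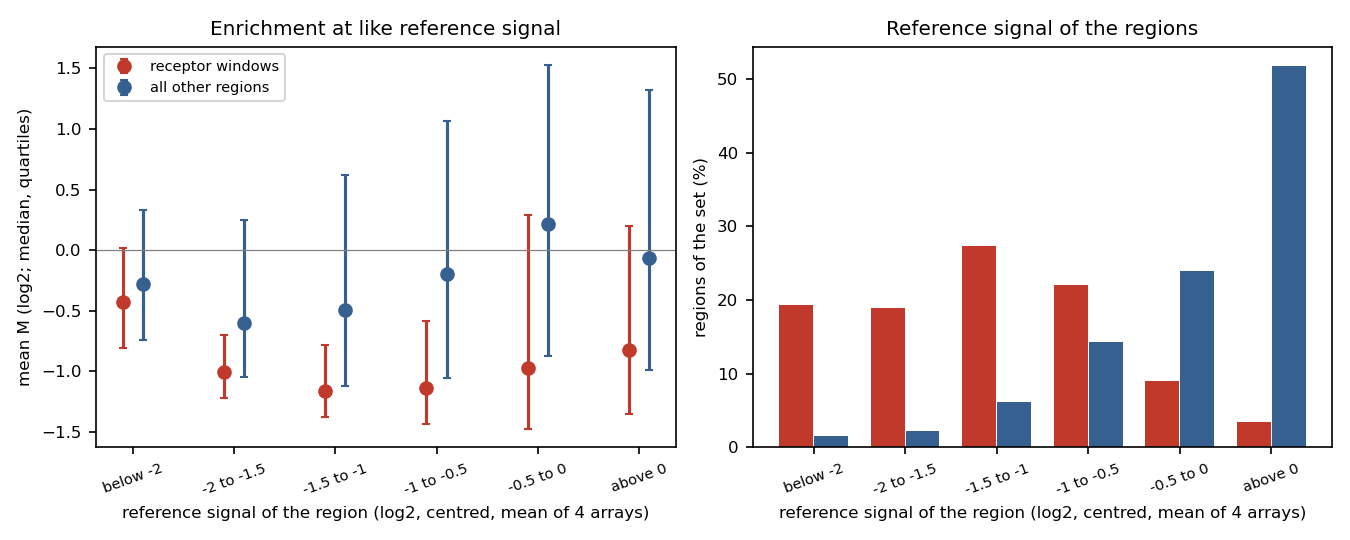
Left, median and quartiles of mean M (log2) for receptor regions and all other regions in 6 classes of reference signal (centred log2, mean of 4 arrays); the receptor median is the lower in each class, least where the reference is below -2. Right, the percentage of each set in each class, with 19.3% of receptor regions and 1.54% of other regions in the lowest.

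The windows differed among themselves, and the chromosome 16 window stood highest. Its median of mean M was -0.50, with 15 of 80 regions (18.8%) above 1. The other medians were -0.89 and -1.0 for the longer and the shorter chromosome 2 window, -1.18 on chromosome 9, -0.96 on chromosome 10, -1.05 on chromosome 17 and -1.08 on chromosome 19. The share of regions above 1 in these 6 lay between 2.54% (chromosome 9) and 6.25% (chromosome 19). Chromosome 16 was the highest of the 7 on each array, with medians of -0.64 and -0.57 on slide 1 (control and food restricted) and -0.39 and -0.46 on slide 2. Chromosome 9 was the lowest on each array, with -1.33 and -1.18 on slide 1 and -1.13 and -1.04 on slide 2. The quartiles of the windows overlapped widely, and chromosome 16 spread most (SD of 1.27 over its 80 regions, against 0.70 to 0.90 in the others).

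Chromosome 16 also had the largest share of probes well above background in the immunoprecipitated channel, 37.0% and 38.3% on the control arrays and 44.4% and 46.6% on the food restricted arrays. Chromosome 10 had the smallest, 14.3% and 13.3% on the control arrays and 24.6% and 22.3% on the food restricted arrays. Each window lay below its own flanks in mean M. The flank medians were -0.13, -0.80, -0.58, -0.34, -0.050, -0.50 and -0.79 in the order of the windows given above. The gap was widest for the longer chromosome 2 window, where the window minus its flanks was -0.77, and narrowest for the shorter one, with -0.20. Without chromosome 16, the receptor medians moved from -0.97 to -1.0 (control) and from -0.93 to -0.95 (food restricted).

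**Figure D3:**
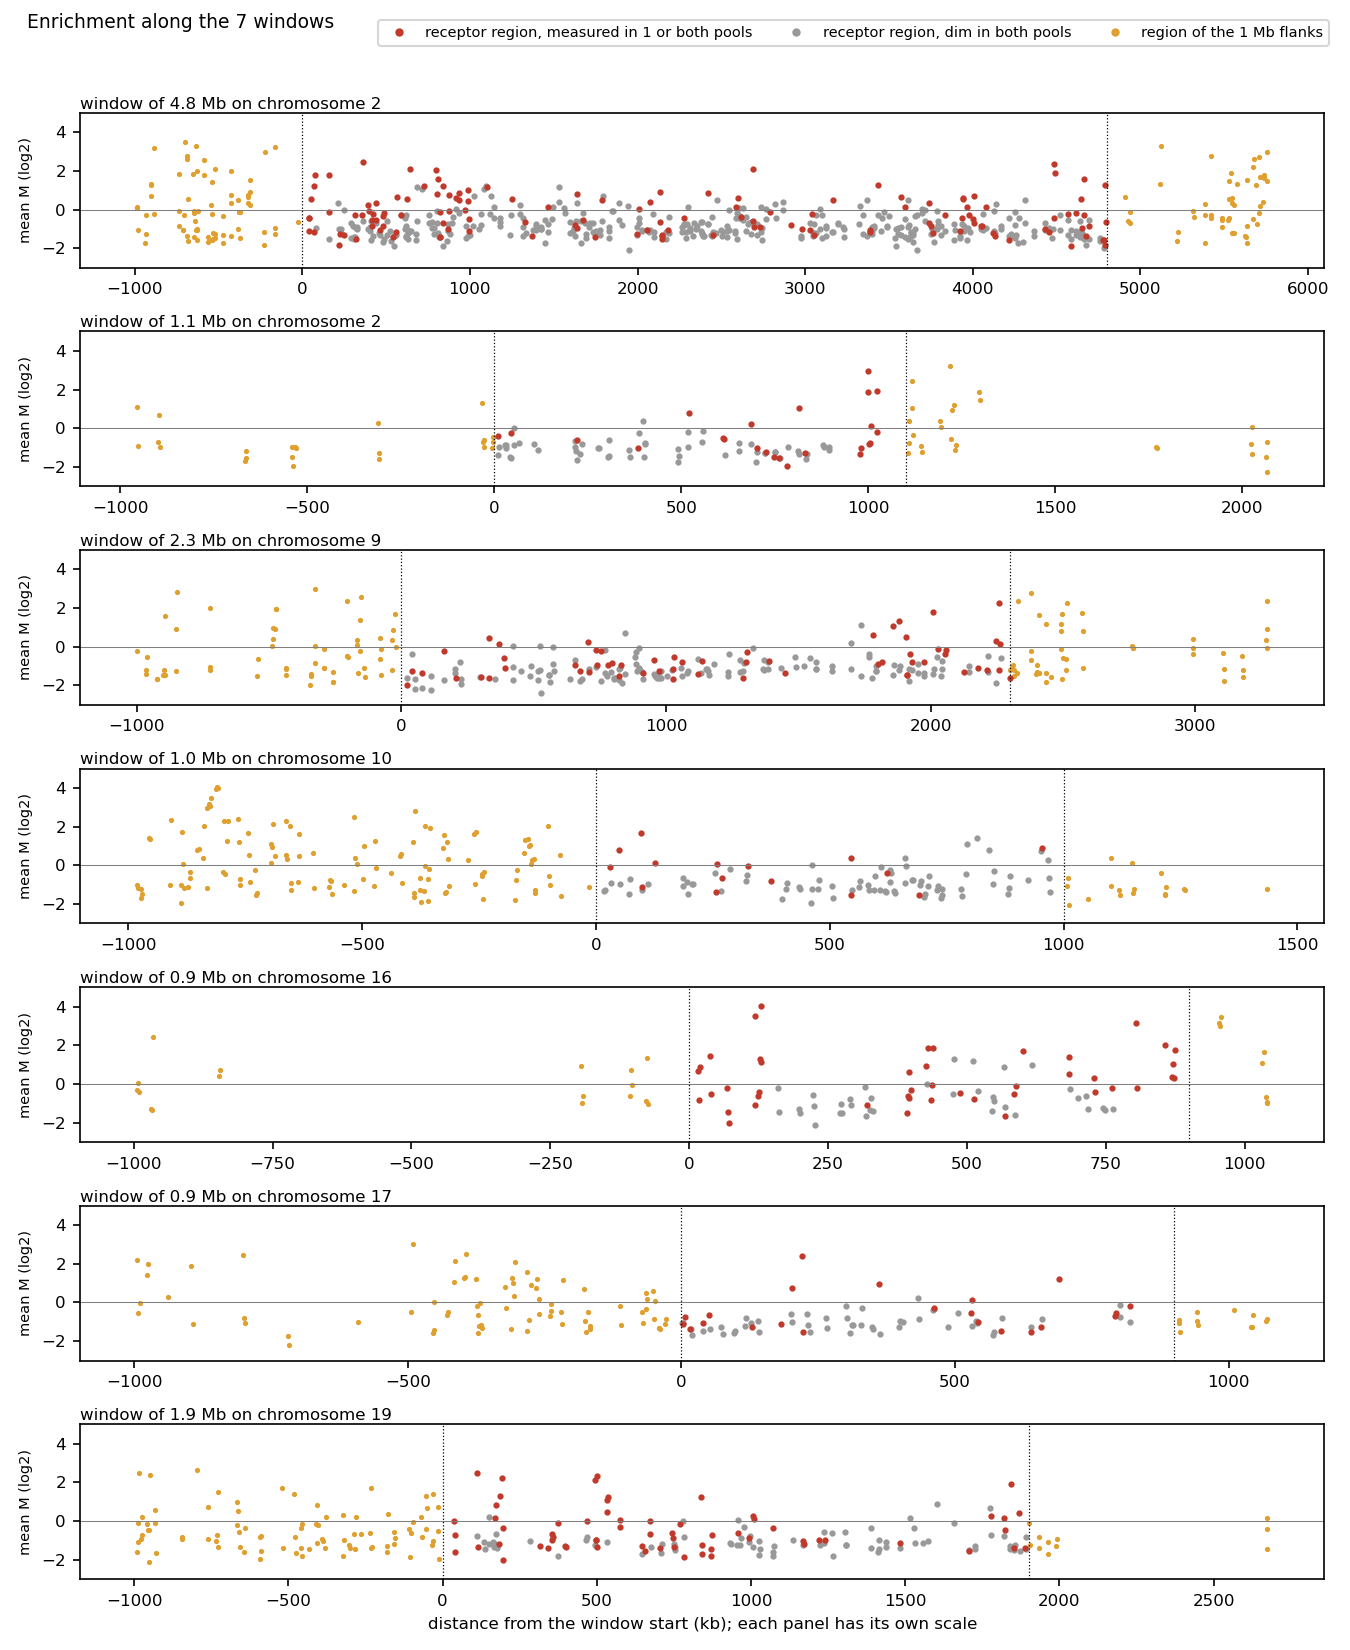
Mean M (log2, mean of 4 arrays) of each region against its distance from the start of its window in kb, 1 panel per window with its own scale; dotted lines mark the window borders. Receptor regions dim in both pools (812) are grey, the other receptor regions red and flank regions yellow, and the highest values of any window are in the chromosome 16 panel.

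The low level began outside the windows and continued inward. In flank regions 500 to 1000 kb from a border the median of mean M was -0.36, and 24.9% of 273 regions were above 1. In the 100 kb just outside it was -0.76 (91 regions, 13.2% above 1), and in the 100 kb just inside -0.85 (119 regions, 10.9%). Deeper inside it was -1.02 between 100 and 200 kb, -1.0 between 200 and 500 kb, -1.03 between 500 and 1000 kb and -0.89 beyond 1000 kb, where only the longest windows reach. The share of regions above 1 was 4.76%, 4.47% and 1.95% in the last 3 of these. The reference signal went from -0.78 just outside to -0.82 just inside and -1.55 beyond 1000 kb, so the innermost regions were also the dimmest in total DNA.

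Along the windows, 125 bins of 100 kb held 3 or more regions. The median of mean M was below 0 in 118 of them and above 0 in 7, with a range from -1.62 to 1.01. Of those 7 bins, 3 had a median reference signal below -2, so that their ratios rest on little signal in either channel.

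The 60 receptor regions with a mean M above 1 were spread over all windows: 22 and 4 on chromosome 2, 5 on chromosome 9, 3 on chromosome 10, 15 on chromosome 16, 2 on chromosome 17 and 9 on chromosome 19. Of the 60, 48 were dim in neither pool and 10 in both, against 16109 and 34 of the 16163 other regions with a mean M above 1. In 14 the reference signal was below -2, against 110 of those 16163. On all 4 arrays M was above 1 in 36, against 14289 of the 16163. The high receptor regions were thus more often dim, and less even over arrays, than other regions of high M. Their median M was 1.49 and 1.37 on slide 1 (control and food restricted) and 1.99 and 1.80 on slide 2.

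The region of highest mean M in each window was dim in neither pool. The values of its 4 arrays are given as control then food restricted on slide 1 and the same on slide 2. The highest of all was chr16:58729656-58730571 (5 probes), with M of 3.75 and 4.37 on slide 1 and 3.69 and 4.30 on slide 2. The next region in rank lay near it at chr16:58717906-58719269 (8 probes) and had 3.31, 3.75, 3.29 and 3.62. Both were higher on the food restricted array of each slide. All 8 probes of the latter were well above background on each array.

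Next in rank were chr16:59404589-59405887 (7 probes), with 2.88, 3.22, 3.10 and 3.34, and chr2:112100601-112101985 (8 probes), the highest of the shorter chromosome 2 window, with 2.82, 2.91, 2.96 and 3.15. On chromosome 19 the highest was chr19:12110273-12111224 (4 probes), with 2.36, 2.66, 2.32 and 2.62. On each slide the food restricted array was the higher in all 5 of these regions, by 0.093 to 0.62 on slide 1 and by 0.19 to 0.61 on slide 2. With pools taken from the value table's column names, D over both pairs of arrays was -0.068, -0.077, 0.17, 0.19 and -0.039 in the order of rank, so 3 of the 5 changed sign.

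In the remaining windows the highest were chr2:85561440-85562543 (7 probes), with 2.50, 2.19, 2.39 and 2.87, chr17:37619585-37620944 (9 probes), with 2.48, 2.32, 2.42 and 2.44, and chr9:39757375-39758594 (8 probes), with 2.38, 2.19, 2.28 and 2.29. Chromosome 10 had the weakest maximum, chr10:128597016-128597976 (5 probes), with 1.55, 1.58, 1.92 and 1.55. The pools overlapped in each of these 4. At chr2:85561440-85562543 the food restricted array was the lower on slide 1 and the higher on slide 2 (differences of -0.31 and 0.48).

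The region at chr16:58729656-58730571 was the only one of the 60 called higher in the food restricted pool by the rule given below, with differences of 0.62 and 0.61 on the slides. Another 3 of the 60 were called lower. Of the 16163 other regions with a mean M above 1, 716 were called higher and 38 lower. With pools taken from the value table's column names, chr16:58729656-58730571 was not called (D of -0.068). By that assignment 16 of the 60 were called higher and 0 lower, against 2.52% and 1.03% of all regions. With the pools as titled, the channels of chr16:58729656-58730571 did not both follow. The immunoprecipitated signal was lower in the food restricted pool, with differences of -0.47 on slide 1 and -0.36 on slide 2. The reference signal was lower still, with differences of -1.0 and -1.1. Its neighbour had reference differences of -0.56 on both slides and immunoprecipitated differences of -0.43 and -0.44. In the 16163 other regions with a mean M above 1, the median immunoprecipitated differences were -0.37 and -0.31 and the median reference differences -0.15 and -0.16. The immunoprecipitated differences at chr16:58729656-58730571 and its neighbour thus lay near those of other high regions, and their reference differences further below. With the pools as titled, their higher food restricted ratio came with less centred reference signal and not with more precipitated DNA.

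The 5 regions of lowest mean M were all dim in both pools, so their values rest on signal near background. They were chr9:38026799-38027406 (3 probes, mean M of -2.39), chr9:37611898-37612497 (4 probes, -2.25), chr9:37551193-37552188 (5 probes, -2.17), chr9:37576919-37577553 (4 probes, -2.15) and chr16:58826131-58827125 (6 probes, -2.10). In the immunoprecipitated channel, at most 2 probes of any of them passed on any array. Over arrays the first ranged from -2.99 on the control array of slide 1 to -1.53 on the food restricted array of the same slide.

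The difference between pools, D, is the food restricted minus the control M within a slide. Slide 1 gave a median D of 0.052 over the receptor regions and slide 2 one of 0.027, against 0.035 and 0.090 in the other regions. The receptor median was thus the higher on slide 1 and the lower on slide 2. Over both slides it lay below that of the other regions with quantile normalisation (-0.082 against 0.0083). It lay above without dim reference and saturated probes (0.16 against 0.080). D spread more widely over the receptor regions, with SDs of 0.48 and 0.50 on the slides, against 0.37 and 0.37. The r of M between the 2 arrays of a pool was 0.83 in both pools over the receptor regions, against 0.97 over the others. The r between slides was 0.21 over the receptor regions and 0.35 over the others, given as a description over regions that share arrays and dim signal. With pools taken from the value table's column names, the median over both slides moved from 0.039 to 0.18, with the other regions moving from 0.062 to -0.030.

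A region was called higher or lower where both slides gave D of the same sign and at least 0.5 in size (1.41-fold). In the receptor windows 47 regions (4.0%) were called higher, against 4.55% of all regions, a share near the background in this setting. With normexp it was 0.17% against 2.74% and with loess 2.81% against 8.52%, below the background in both. The normexp offset of 50 exceeds the median immunoprecipitated signal of receptor probes on each array (5.22 to 10.47 scanner units). An offset of that size shrinks D in dim regions, so the normexp share is not a like comparison with the background. Lower in the food restricted pool were 45 (3.83%), against 0.643% of all regions. Past the same size with opposite signs on the slides were 31 (2.64%), against 0.715% of all regions. Discordant pairs of slides were thus also more frequent here than over all regions. With pools taken from the value table's column names the calls were 127 higher (10.8%, against 2.52% of all regions) and 9 lower (0.765%, against 1.03%), so the higher and not the lower calls then exceeded the background.

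**Figure D4:**
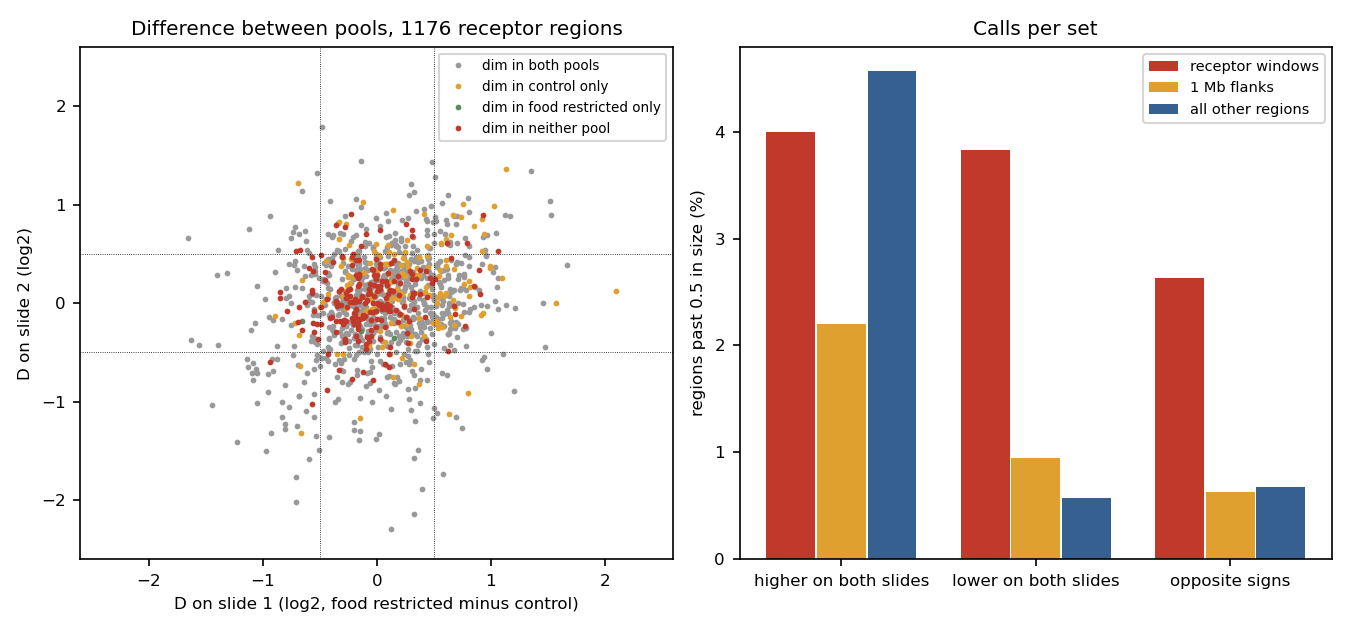
Left, D (log2, food restricted minus control) on slide 1 against slide 2 for each of the 1176 receptor regions, coloured by the pools in which the region was dim; dotted lines mark 0.5 in size. Right, the percentage of each set called higher (4.0% of receptor regions), lower (3.83%) and past 0.5 with opposite signs (2.64%), beside the flanks and all other regions (which include the flanks).

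The lower calls lay where little signal was measured. Of the 45, 41 were dim in both pools, 32 had a reference signal below -2, and their median reference signal was -2.87. Among regions dim in both pools, 5.05% of receptor regions and 2.6% of other regions were called lower, 3.82% and 3.90% higher, and 3.20% and 3.22% opposite. Among regions with a reference below -2, 14.1% of receptor regions and 9.38% of other regions were called lower. In the 45, the food restricted reference exceeded the control reference by a median of 0.42 and 0.59 on the slides, and the immunoprecipitated signal differed by -0.37 and -0.44. The opposite calls were likewise dim, with 26 of 31 dim in both pools. Without probes dim in the reference or saturated, 14 of the 45 lower regions could be measured and 3 of them were still called, out of 5 lower calls (0.497%, against 0.232% of all regions) and 73 higher ones (7.26%, against 5.21%). What part dim signal has in the lower calls was not tested further.

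Of the 47 higher calls, 31 were dim in both pools, 12 in the control pool alone and 4 in neither. Their median M on slide 1 was -1.73 (control) and -0.93 (food restricted), and on slide 2 -1.59 and -0.78. Their immunoprecipitated signal was higher by a median of 0.60 and 0.56 and their reference signal by 0.12 and 0.15. Among the other regions, 10.8% of those dim in the control pool alone were called higher, and 7.89% of such receptor regions were. Of the 209 regions dim in neither pool, 4 (1.91%) were called higher and 2 (0.957%) lower, against 4.05% and 0.364% of the other regions dim in neither.

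The higher calls with the largest D on their weaker slide began with chr2:111978912-111980269 (7 probes), where M was -1.49 and -0.13 on slide 1 (control and food restricted) and -1.60 and -0.26 on slide 2. It was dim in both pools, with none of its probes well above background on the control arrays and 2 on each food restricted array, so no fold is given. The same holds for chr9:38075592-38077107 (7 probes), with -2.16, -0.64, -1.58 and -0.55, where 3 probes were above background on each food restricted array and 1 on each control array. In both regions, each food restricted array lay above each control array.

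At chr19:12705695-12706535 (5 probes) M was -2.19, -1.05, -1.83 and -0.48, and at chr19:12341910-12342860 (6 probes) -1.79, -0.76, -2.01 and -1.03. Both were dim in the control pool alone. Their food restricted immunoprecipitated signal was compared after loess and Aquantile normalisation. It was set against the control signal or, where larger, the lowest signal flagged as above background on the control arrays. The ratio was 1.11-fold at the second region and not above 1 at the first. That lowest signal is the minimum over all flagged probes, so these ratios are not strict lower bounds. The fifth, chr16:58670948-58671302, rests on 3 probes, of which 2 were above background on each array. Its M was -2.41 and -1.48 on slide 1 and -2.54 and -1.65 on slide 2, a 1.88-fold higher ratio in the food restricted pool, while its median immunoprecipitated signal differed by 0.18 on slide 1 and -0.40 on slide 2.

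The lower calls with the largest D on their weaker slide were all dim in both pools, so no fold is given. At chr9:38396887-38397921 (3 probes) M was 0.29 and -0.94 on slide 1 and 0.90 and -0.51 on slide 2. At chr19:12781134-12782332 (5 probes) it was 0.55, -0.89, 0.74 and -0.29, with a reference signal of -4.39 and -3.45 on the control arrays and -2.81 and -2.57 on the food restricted arrays. At chr2:88843366-88844885 (9 probes) it was -0.83, -1.89, -0.71 and -1.72. In each, both food restricted arrays lay below both control arrays.

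Both chromosome 10 regions in this list were dim in the reference channel of both pools too. At chr10:129292718-129293564 (6 probes) M was 1.0, 0.032, 2.43 and 0.93, and at chr10:129160286-129161409 (7 probes) 0.77, -0.16, 1.16 and -0.16. The 2 control arrays of the first differed by more than the pools did on slide 1. Of these 10 regions called higher or lower, 8 changed sign in D when the pools were taken from the value table's column names, and the exceptions were chr19:12705695-12706535 and chr9:38075592-38077107.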

How the data were processed

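The members, windows and named-region rule were chosen with earlier results of these data known. The deposited intensities came from Agilent Feature Extraction 10.5.1.1, as the submitters' processing notes and headers record. Per the file headers, processed intensities are background-subtracted, with a linear dye normalisation inside each array. A deposited log10 ratio was not used for results. The authors' value table holds log2 ratios whose centring is unstated (column medians from -0.23 to 0.24), and served as an alternative.

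Of 415814 non-control probes, 65 with outlier flags were left out. The dyes named in the titles set the direction of M, which was centred on each array's median. The ratios against background in dim regions used loess and Aquantile in limma 3.58.1 with R 4.3.3, and the normexp and loess alternatives used limma too. Other steps used Python 3.11.15, pandas 2.3.3 and numpy 2.4.6. Region medians of M and the calls were tested on simulated M with equal noise for all probes, and joining on made-up positions. Dim signal and background were not simulated, and the remaining steps were not tested in this way. The precision is limited by 1 pool per group and 2 arrays per pool. Named regions are the 5 of highest and the 5 of lowest mean M, the 5 called higher and 5 called lower with the largest D on their weaker slide, and the highest of each window. In all, 16 alternatives were listed at the outset and 2 were added after seeing the data (the value table's column names, and leaving out chromosome 16).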

Additional observations from a re-analysis of the deposited data

How the results depend on the processing

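The median M of the receptor regions (control, food restricted; -0.97 and -0.93 as reported) was 0.067 and 0.058 with normexp, -0.18 and -0.14 with loess, -1.21 and -1.08 without centring, 0.19 and 0.049 with centring on the densest value, -1.39 and -1.15 without dim reference and saturated probes, 0.63 and 0.54 without dim immunoprecipitated probes, and -2.72 and -2.57 in the immunoprecipitated channel alone. With the mean over probes the control value was -0.81. The other regions moved alike to -0.29 and -0.21 without centring, and to 1.11 and 0.91 with centring on the densest value. In both of these settings the receptor minus other difference stayed at -0.92 (control) and -0.87 (food restricted). The median D (0.039 as reported) was -0.0092 with normexp, -0.082 with quantile normalisation, 0.12 without centring, -0.15 with centring on the densest value, 0.16 without dim reference and saturated probes, -0.011 without dim immunoprecipitated probes, -0.0023 with the mean over probes, -0.094 with a running median taken off, 0.018 in the immunoprecipitated channel alone and 0.18 with pools by the value table's column names. In the other regions the median D was 0.062 as reported, 0.060 with normexp, 0.0083 with quantile normalisation and 0.15 without centring. It was -0.13 with centring on the densest value, 0.080 without dim reference and saturated probes, and 0.029 without dim immunoprecipitated probes. The mean over probes gave 0.095, a running median taken off 0.00025, the immunoprecipitated channel alone -0.12 and the column names -0.030. The 47 higher and 45 lower calls became 2 and 0 with normexp (0.17% and 0%, against 2.74% and 0.0018% of all regions), 33 and 11 with loess (2.81% and 0.935%, against 8.52% and 0.418%), 14 and 63 with quantile normalisation (1.19% and 5.36%, against 1.18% and 1.03%), 70 and 35 without centring (5.95% and 2.98%, against 7.19% and 0.401%), 16 and 80 with centring on the densest value (1.36% and 6.80%, against 1.36% and 2.17%), 73 and 5 without dim reference and saturated probes, 4 and 1 without dim immunoprecipitated probes (2.03% and 0.508%, against 3.90% and 0.153%), 16 and 14 with the mean over probes (1.36% and 1.19%, against 3.11% and 0.189%), 16 and 59 with a running median taken off (1.36% and 5.02%, against 1.09% and 1.00%), 59 and 29 in the immunoprecipitated channel alone (5.02% and 2.47%, against 3.33% and 1.72%), 44 and 19 without the slide as a block (3.74% and 1.62%, against 3.96% and 0.44%), 3 and 3 at a size of 1 (0.255% each, against 0.192% and 0.0424%), and 127 and 9 with pools by the value table's column names. On 1 slide alone they were 157 to 197 higher and 137 to 156 lower (13.4% to 16.8% and 11.6% to 13.3%, against 12.4% to 13.8% and 3.75% to 4.48%). The receptor share of lower calls was above that of all regions in each of these settings except normexp and the column names, and that of higher calls was on either side. Of the 47 higher calls, 1 was kept with normexp, 19 with loess and 14 with quantile normalisation; of the 45 lower calls, 0, 5 and 42 were.

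Signs of D turned for these regions. With normexp D was -0.024 at chr2:111978912-111980269, -0.035 at chr19:12705695-12706535 and -0.017 at chr19:12341910-12342860. With loess it was 0.096 at chr19:12781134-12782332, 0.087 at chr10:129292718-129293564 and 0.13 at chr10:129160286-129161409. In the immunoprecipitated channel alone it was -0.11 at chr16:58670948-58671302 and 0.27 at chr19:12781134-12782332. With pools by the value table's column names it was -0.12 at chr2:111978912-111980269, -0.24 at chr19:12341910-12342860, -0.15 at chr16:58670948-58671302, 0.52 at chr9:38396887-38397921, 0.39 at chr19:12781134-12782332, 0.14 at chr2:88843366-88844885, 1.16 at chr10:129292718-129293564 and 0.19 at chr10:129160286-129161409. The causes were not tested. No paired analysis was possible because each group is 1 pool and the shared number is the slide, which D already takes as a replicate block. The background sets what can be read in dim regions, and 1 pool per group leaves the spread between animals unmeasured.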
